A study of Mus musculus with 12 samples.

Results

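The cytosolic chaperonin TRiC, also called CCT, is a double ring in which each ring holds 8 different but related subunits, encoded in the mouse by Tcp1, Cct2, Cct3, Cct4, Cct5, Cct6a, Cct7 and Cct8. These 8 genes were chosen by name, with every probe whose platform symbol is one of them, and a probe was tested where its detection p-value was under 0.05 on at least 6 of the 12 arrays. The 8 genes had 12 of the 45281 probes on the array, and 9 of these probes, for 6 of the 8 genes, were among the 15570 probes tested. The samples were gastrocnemius muscles of 12 male C57BL/6J mice aged 10 to 12 weeks and weighing 22 to 26 g, 6 titled heat tolerant (TOL) and 6 titled heat intolerant (INT), with 1 Illumina MouseWG-6 v2 BeadChip array per mouse. All 12 mice had a temperature transponder implanted and underwent the same heat test in a chamber at 39.5 °C for at most 3 h, no mouse was left unheated, and muscle was taken on the day after. The test itself sorted the mice into TOL and INT, so the labels describe how each mouse responded and not a treatment. The description field of every sample says heat intolerant, so the groups were taken from the titles and source names.

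TRiC takes up newly made proteins that cannot fold unaided, encloses them in its central cavity and folds them with ATP. Actin and tubulin are the best known of its clients, and prefoldin, a smaller hexamer, hands both to it. Muscle fibres are rich in actin, the main protein of their thin filaments. One copy of each subunit sits at a fixed place in each ring, so the question put to the data was how steady the subunit transcripts were over the mice, whether they differed between TOL and INT, and whether they moved together.

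The number of probes detected per array was 15179 to 16769 in TOL mice and 15337 to 17017 in INT mice. The median raw signal was 71.5 to 74.0 in TOL mice and 72.9 to 73.8 in INT mice. In every TOL mouse but mouse 5, at 74.0, it was 72.7 or less, below that of every INT mouse. The muscle fibre markers were all 7 tested, with a mean level of 12.7 to 12.8 log2 in TOL mice and 12.6 to 12.8 in INT mice, while satellite cell markers had 0 of 2 genes tested. The 7 slow-twitch fibre markers were lower in TOL mice (median log2 fold change -0.76, 6 of 7 at an unadjusted p of 0.05 or less, 0 at an adjusted p under 0.05), and their mean level ran over 7.60 to 9.63 in TOL mice and 8.85 to 10.7 in INT mice. The 4 smooth muscle markers were also lower in TOL mice, by a median of -0.29, with 2 at an unadjusted p of 0.05 or less. Whether fibre composition has a part in any subunit value was not tested, and in whole muscle fewer cells of a type and less RNA per cell cannot be told apart. TOL mouse 11 stood apart most, with the fewest detected probes and a mean correlation with the other arrays of 0.973, where the other 11 arrays lay between 0.981 and 0.987.

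No TRiC gene differed between TOL and INT muscle after adjustment for all tested probes. In limma's test with Benjamini-Hochberg adjustment, 0 of the 6 tested genes passed an adjusted p of 0.05, against 0.542% of the 9034 named genes tested. At an unadjusted p of 0.05 or less, Tcp1 alone passed, being higher in TOL mice, where 3.89% of all named genes were higher and 4.53% were lower. The median log2 fold change was 0.043 over the 6 subunits and -0.0034 over all genes. The 95% intervals of the 6 gene values ran from -0.26 at the lowest end to 0.41 at the highest.

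**Figure D1:**
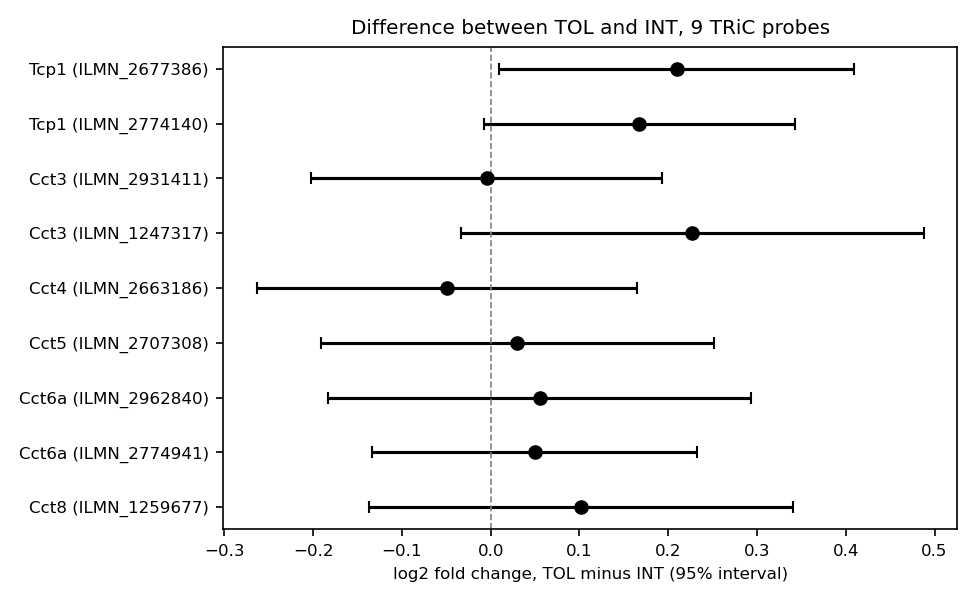
Log2 fold change of each tested TRiC probe, TOL minus INT (x axis), with its 95% interval from limma as bars, 1 row per probe. The interval of the brighter Tcp1 probe starts at 0.0094 and those of the other 8 probes include 0.

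The promoters of the subunits were read because heat shock factor 1 binds heat shock elements, alternating units of GAA and TTC. The RefSeq table for mouse build GRCm38.p6 gives 300 bases per window, 250 before and 50 after a transcript start, and held 9 windows for 7 of the 8 genes, with none for Cct4. Tcp1 is shown because it had the smallest p of the subunits, Cct6a because its window holds a pair of units, and Hspa1a because its transcript varied most among the chaperones, with any match to GAANNTTC or TTCNNGAA in capitals.
Tcp1, chr17:12916079-12916378, plus strand: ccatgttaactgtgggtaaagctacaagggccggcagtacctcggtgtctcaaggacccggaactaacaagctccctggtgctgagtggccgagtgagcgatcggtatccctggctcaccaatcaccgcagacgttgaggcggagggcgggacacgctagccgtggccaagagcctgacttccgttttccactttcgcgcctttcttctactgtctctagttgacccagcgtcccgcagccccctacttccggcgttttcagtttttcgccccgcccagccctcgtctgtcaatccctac
Cct6a, chr5:129787106-129787405, plus strand: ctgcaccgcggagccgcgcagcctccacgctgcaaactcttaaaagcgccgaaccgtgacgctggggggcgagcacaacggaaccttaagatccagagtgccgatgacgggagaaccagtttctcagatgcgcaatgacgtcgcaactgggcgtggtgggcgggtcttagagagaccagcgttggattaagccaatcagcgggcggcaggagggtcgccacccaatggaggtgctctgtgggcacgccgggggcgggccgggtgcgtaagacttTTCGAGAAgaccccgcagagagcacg
Hspa1a, chr17:34972107-34972406, minus strand: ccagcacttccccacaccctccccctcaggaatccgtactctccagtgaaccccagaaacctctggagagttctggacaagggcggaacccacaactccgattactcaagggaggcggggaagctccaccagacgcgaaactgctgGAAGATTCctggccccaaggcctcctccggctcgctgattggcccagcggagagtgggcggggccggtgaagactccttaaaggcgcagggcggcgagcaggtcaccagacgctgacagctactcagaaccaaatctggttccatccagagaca
In the Cct6a window the match starts at base 25 of the transcript, and in the Hspa1a window it starts at base -104, counted back from the start.

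A run of 3 units, GAA and TTC alternating with NN between them, was in 0 of the 9 TRiC windows, in the Hspa1a window 0 times, and in 0.603% of all 32851 windows. A pair of units was in 3 of the 9 windows, that of Cct6a, 1 of 2 for Cct2 and 1 of 2 for Cct5, and in 15.1% of all windows. Of the other chaperone genes searched, Hspa1b had 1 pair, and the Dnajb1 windows held neither. Hsph1 had 1 run of 3 units and 3 pairs in each of its overlapping windows, which hold the same sites. The pairs that start at bases 16 and 21 of the transcript in its first window are parts of that run. The E-box CACGTG, a motif that Myc and related factors bind, was in 0 TRiC windows and in 7.15% of all. The TRiC windows held 19 to 30 CpG dinucleotides, where the median of all windows was 7 and the upper quartile 20. All searches covered both strands, and a match is a match of letters only.

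Tcp1, the subunit after which the complex was first named, had log2 intensities of 8.49, 8.42, 8.45, 8.39, 8.49 and 8.47 in TOL mice 3, 4, 5, 7, 9 and 11, against 8.09, 8.18, 8.45, 8.44, 8.33 and 7.97 in INT mice 3, 4, 5, 7, 9 and 11 (probe ILMN_2677386). The TOL mice were all near the top of the range, whereas 4 of the 6 INT mice lay below every TOL mouse and INT mice 5 and 7 lay among them. The mean was 8.45 ± 0.041 in TOL mice and 8.24 ± 0.20 in INT mice (SD, n = 6 each), a log2 fold change of 0.21 (SE 0.095), with an unadjusted p of 0.0412 and an adjusted p of 0.483 in limma's test. Before normalization the narrow TOL range was not seen, since the raw signal ran from 346.8 to 434.8 in TOL mice and from 318.8 to 442.5 in INT mice. A second Tcp1 probe (ILMN_2774140) was dim, being detected on all 6 TOL arrays and 4 of the 6 INT arrays, and gave 4.54 ± 0.077 in TOL mice and 4.37 ± 0.20 in INT mice (log2 fold change 0.17, SE 0.083, adjusted p = 0.533). Both probes thus gave higher values in TOL mice, but over the 12 mice they followed each other weakly (r = 0.27). The unadjusted p of the brighter probe was above 0.05 when any of 8 mice was left out, with 0.0826, 0.0740 and 0.111 without INT mouse 3, 4 or 11, and 0.0691, 0.0531, 0.0561, 0.0661 and 0.0599 without TOL mouse 3, 4, 5, 9 or 11. It was also above 0.05 with median scaling in place of quantile normalization (0.0801), without the detection filter (0.0779) and with array weights (0.0545).

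**Figure D2:**
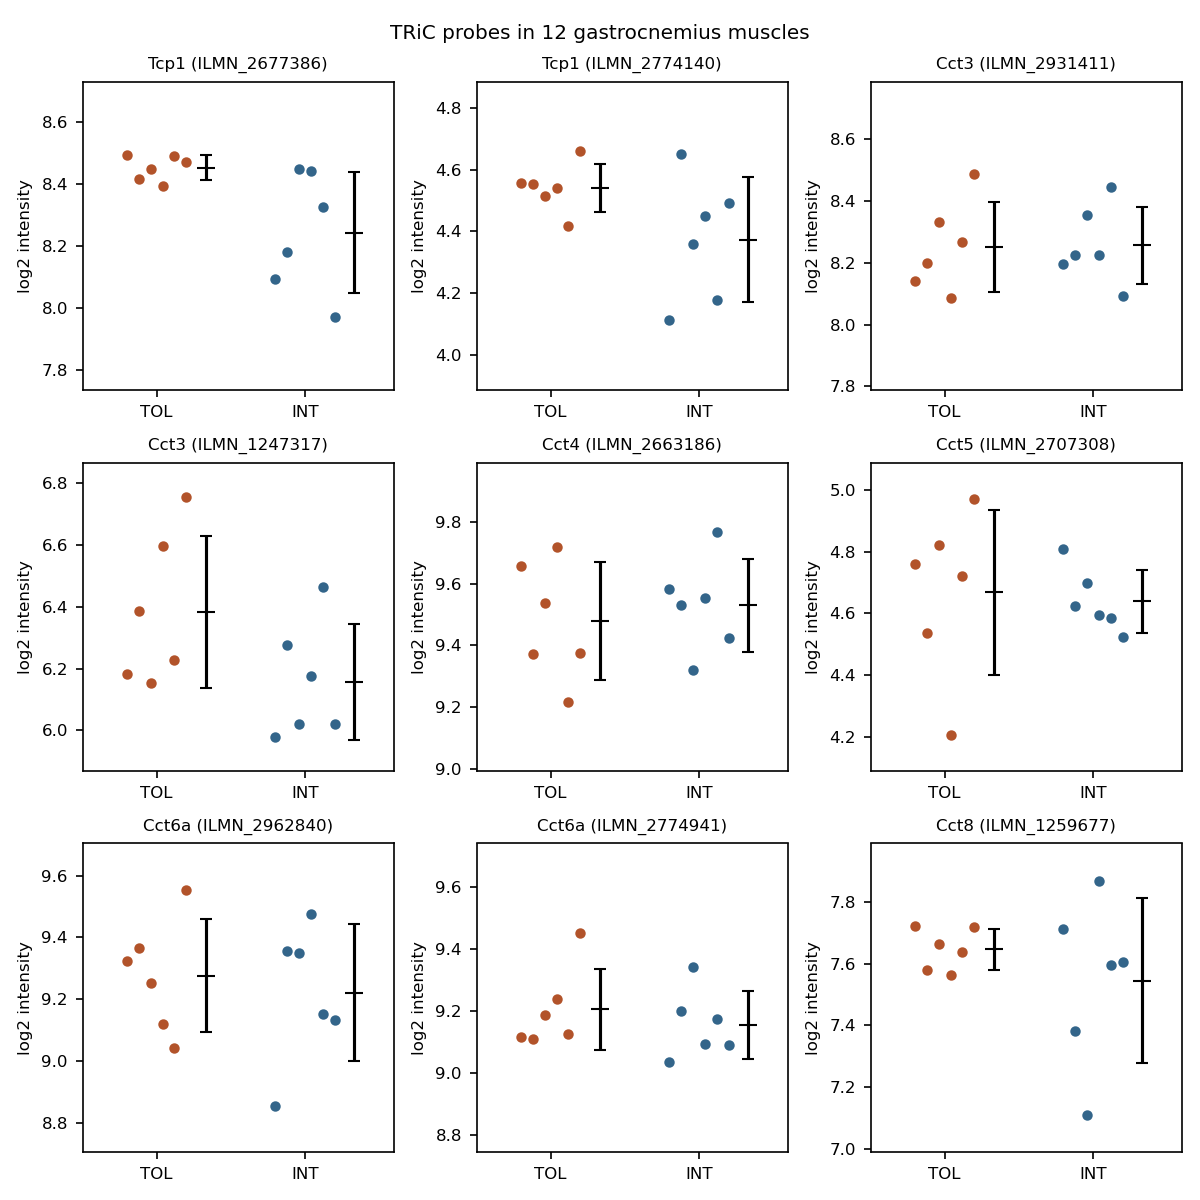
Log2 intensity (y axis, 1 log2 unit high in every panel) of each tested TRiC probe in 6 TOL mice (left) and 6 INT mice (right), 1 point per mouse in the order of mouse numbers, with the mean and SD beside the points. The TOL points of the brighter Tcp1 probe lie between 8.39 and 8.49, and in each panel the 2 labels share part of their range.

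Cct3 encodes the gamma subunit and had 3 probes on the array. Its brightest one (ILMN_2931411) read 8.14, 8.20, 8.33, 8.09, 8.27 and 8.49 in TOL mice 3, 4, 5, 7, 9 and 11, against 8.20, 8.22, 8.35, 8.23, 8.45 and 8.09 in INT mice in the same order of numbers. The labels overlapped over nearly their whole range, and the log2 fold change was -0.0044 (SE 0.093, adjusted p = 0.994). A dimmer probe of the same gene (ILMN_1247317), detected on all 12 arrays, gave 6.38 ± 0.25 in TOL mice and 6.16 ± 0.19 in INT mice, with a log2 fold change of 0.23 (SE 0.12, adjusted p = 0.593). TOL mice 7 and 11 were the highest on this dimmer probe, at 6.60 and 6.75, whereas on the brighter probe TOL mouse 7 was the lowest of the 12 mice. The third probe (ILMN_1251158) was made against another transcript sequence and was detected on 2 of 12 arrays, both of TOL mice, so it was not tested.

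Cct4, the delta subunit, read 9.66, 9.37, 9.54, 9.72, 9.22 and 9.38 in TOL mice 3, 4, 5, 7, 9 and 11, against 9.58, 9.53, 9.32, 9.55, 9.77 and 9.42 in INT mice. No mouse stood apart at this probe and the labels overlapped (log2 fold change -0.049, SE 0.10, adjusted p = 0.916). Cct8, the theta subunit, read 7.72, 7.58, 7.66, 7.56, 7.64 and 7.72 in TOL mice, against 7.71, 7.38, 7.11, 7.87, 7.59 and 7.61 in INT mice. The INT mice held both ends of the range, the lowest in mouse 5 and the highest in mouse 7, and the TOL mice lay between them (SD 0.066 in TOL mice and 0.27 in INT mice, log2 fold change 0.10, SE 0.11, adjusted p = 0.824).

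Cct6a, one form of the zeta subunit and one of the genes above with a pair of heat shock units, was measured by 2 bright probes. The brighter one (ILMN_2962840) read 9.32, 9.37, 9.25, 9.12, 9.04 and 9.55 in TOL mice 3, 4, 5, 7, 9 and 11, against 8.86, 9.36, 9.35, 9.48, 9.15 and 9.13 in INT mice. TOL mouse 11 was the highest and INT mouse 3 the lowest, and the second probe (ILMN_2774941) put the same mice at its ends, at 9.45 and 9.03. The log2 fold changes of the 2 probes were 0.055 (SE 0.11, adjusted p = 0.915) and 0.050 (SE 0.087, adjusted p = 0.903). Cct5, the epsilon subunit, was dim, with raw signals of 72.2 to 86.1 and detection on 5 of 6 TOL arrays and 6 of 6 INT arrays. It read 4.76, 4.54, 4.82, 4.21, 4.72 and 4.97 in TOL mice, against 4.81, 4.62, 4.70, 4.60, 4.58 and 4.52 in INT mice. Here the TOL mice held both ends of the range, mouse 7 the lowest and mouse 11 the highest (SD 0.27 in TOL mice and 0.10 in INT mice, log2 fold change 0.030, SE 0.10, adjusted p = 0.956).

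Cct2, the beta subunit, and Cct7, the eta subunit, had 1 probe each and were not tested. The Cct2 probe was detected on 0 of 6 TOL arrays and 1 of 6 INT arrays, with raw signals of 69.4 to 76.3, and the Cct7 probe on 1 of 6 arrays of each label, with raw signals of 69.0 to 76.4. These signals lie close to the median of all probes on an array, so the probes gave no measure of either transcript, and nothing follows about whether the genes are expressed. Any statement on the complex below therefore rests on 6 of its 8 subunits, and on 5 that were clearly above background.

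The subunits varied from mouse to mouse about as much as the median named gene, and less than the inducible chaperones. Over the 12 mice the range of a tested subunit gene was 0.40 to 0.76 on the log2 scale, and its SD had a median of 0.18 over the 6 genes, where the median over all named genes was 0.18 too. Within labels, the SD at the brightest probe was smaller in TOL mice for Tcp1, Cct6a and Cct8 and larger for Cct3, Cct4 and Cct5, a difference that was not tested. The second Cct6a probe went the other way, with 0.13 in TOL mice and 0.11 in INT mice, while the second Tcp1 and Cct3 probes did not. The Cct5 SD in TOL mice includes TOL mouse 7, where Cct5 was not above background. Hspa1a and Dnajb1, the inducible Hsp70 and an Hsp40 that works with it, ranged over 7.77 and 4.46 in the same mice. The median SD was 0.89 for the 8 tested chaperone genes known as targets of heat shock factor 1, 0.63 for the 2 genes of the mitochondrial chaperonin, 0.24 for Hsp90 partners, 0.20 for the proteasome and 0.15 for prefoldin.

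**Figure D3:**
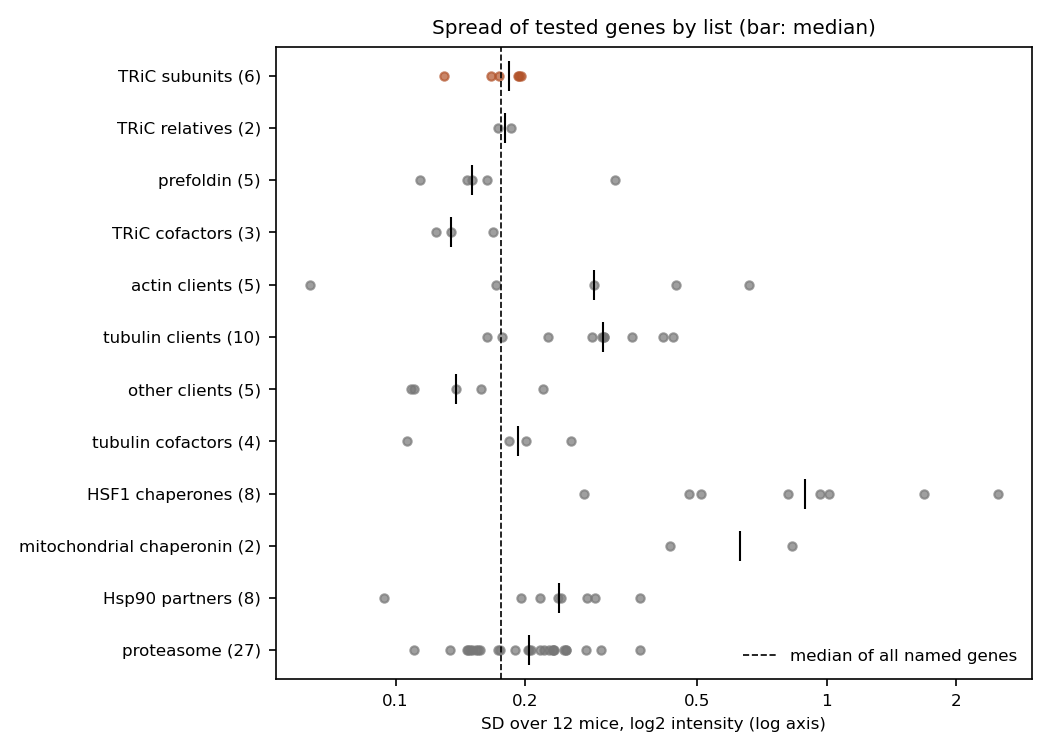
SD over the 12 mice of each tested gene in log2 intensity (x axis, log scale), 1 row per gene list with the number of tested genes in brackets, the median of each list as a bar and the median of all named genes as a dashed line. The 6 TRiC genes lie around the dashed line, and the 8 chaperone genes known as targets of heat shock factor 1 reach from 0.27 to 2.49.

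Hspa1a was high in 3 of the 12 mice, all of them TOL, and the subunits gave no common picture in these mice. Hspa1a read 5.23, 10.0, 4.68, 8.88, 5.29 and 12.4 in TOL mice 3, 4, 5, 7, 9 and 11, against 4.64, 4.98, 5.29, 6.26, 5.74 and 5.52 in INT mice, and Dnajb1 read 10.7, 10.3 and 9.77 in TOL mice 4, 7 and 11 and no more than 8.09 elsewhere. The mean deviation of the 6 TRiC genes from their 12-mouse means was 0.082, -0.023, 0.076, -0.086, -0.038 and 0.16 in TOL mice 3, 4, 5, 7, 9 and 11, against -0.060, -0.052, -0.054, 0.092, 0.044 and -0.14 in INT mice. So the mouse with the most Hspa1a, TOL mouse 11, had the highest TRiC mean, while TOL mouse 4 lay near 0 and TOL mouse 7 had the lowest TRiC mean of the TOL mice. The dim Cct5 was highest in TOL mouse 11, at 4.97, and lowest in TOL mouse 7, at 4.21, where it was not above background. The low mean of TOL mouse 7 thus rests in part on a value near background, and the means without Cct5 were not computed. TOL mouse 11 was the highest of the 12 mice at 6 of the 9 tested TRiC probes and the lowest at 0. INT mouse 3 was the lowest at 4. The 9 probes include further probes of Tcp1, Cct3 and Cct6a, and the dim Cct5. TOL mouse 11 and INT mouse 3 also had the lowest mean correlations with the other arrays, 0.973 and 0.981. How often they were extreme over all tested probes was not counted, so these counts cannot show anything particular to TRiC. Without TOL mouse 11 the median log2 fold change of the subunits was -0.014, and without TOL mouse 7 it was 0.10. Because the 3 mice with high Hspa1a stand apart, no correlation with Hspa1a over all mice is given. The part of array quality in the values of TOL mouse 11 and INT mouse 3 was not tested.

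**Figure D4:**
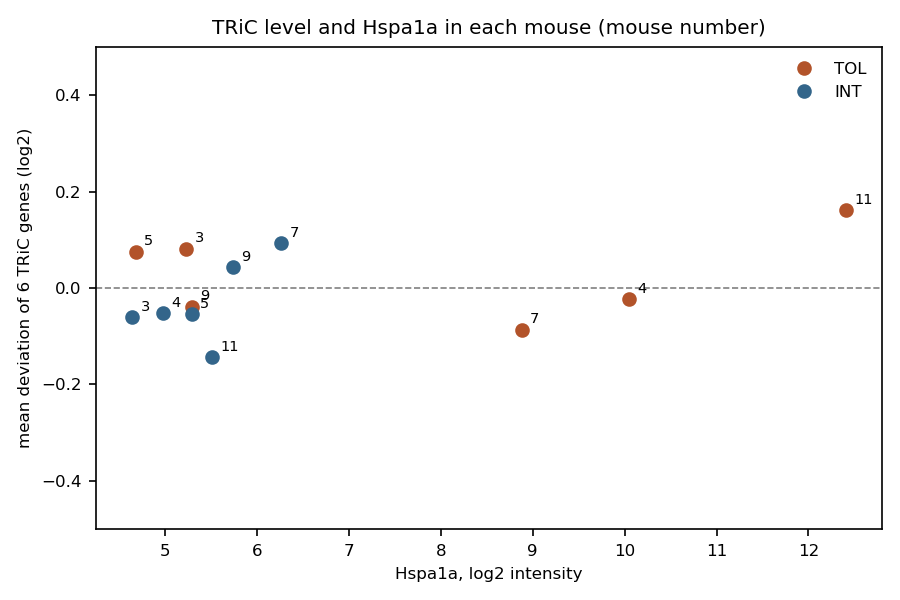
Mean deviation of the 6 tested TRiC genes from their 12-mouse means (y axis, log2) against Hspa1a (x axis, log2 intensity), 1 point per mouse with its number, TOL and INT in different colours. TOL mice 4, 7 and 11 have Hspa1a values of 8.88 to 12.4, and their TRiC means are -0.023, -0.086 and 0.16. The mean of TOL mouse 7 includes Cct5, which was not above background in that mouse.

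The subunit transcripts followed each other only weakly over the mice. The 15 pairs of the 6 tested genes had a median Pearson r of 0.16, with 9 pairs above 0 and 6 below, where the median over all 40802061 pairs of named genes was 0.0034. It was 0.011 over the 10 pairs without the dim Cct5, 0.018 over the 11 mice without TOL mouse 11 and 0.073 over those without TOL mouse 7. An r of 0.6 or more was reached by 0 of the 15 pairs and by 3.35% of all pairs. Proteasome genes, another large complex, had a median r of 0.36 over 351 pairs in the same muscles, and the chaperone genes known as targets of heat shock factor 1 had 0.59 over 28 pairs. These 2 medians were not computed without TOL mouse 7 or 11, and Hspa1a and Dnajb1 were high only in TOL mice 4, 7 and 11. Genes on 1 array share its normalization and the pairs share genes, so these medians are descriptions.

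Cct3 and Cct5 were the closest pair, with r = 0.60 and Spearman's rho = 0.50 (12 mice, permutation p = 0.0381 and 0.0989, unadjusted, 100000 resamples, 2-sided), and r = 0.63 without the 2 mice in which Cct3 was farthest from its median. In a check added after the values were seen, r was 0.48 without TOL mouse 7, where Cct5 was farthest from its median and not above background, and 0.15 without TOL mice 7 and 11, so the relation rests on these mice. Cct3 and Cct5 was the only pair of 15 at an unadjusted permutation p of 0.05 or less for r, and Cct5 is the dim one of the 6 genes. Within labels the r of Cct3 and Cct5 was 0.82 in TOL mice and 0.10 in INT mice. Tcp1 and Cct6a came next, with r = 0.48 and rho = 0.29 (permutation p = 0.114 and 0.353), and r was 0.035 without INT mice 3 and 11, so that relation rests on these mice. Cct4 followed the other subunits least: 4 of its 5 pairs were below 0, down to -0.35 with Cct5 (rho = -0.18, permutation p = 0.262 and 0.574), and Cct8 was its one partner above 0 (r = 0.27, rho = 0.22, permutation p = 0.408 and 0.485). Without INT mouse 9 and TOL mouse 9, where Cct4 was farthest from its median, r was -0.36 with Cct5 and 0.43 with Cct8. In the check added later, r was 0.073 for Cct4 and Cct5 without TOL mice 7 and 11. For Cct4 and Cct8 it was -0.015 without INT mouse 5. Both values thus depended on which mice were left out.

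**Figure D5:**
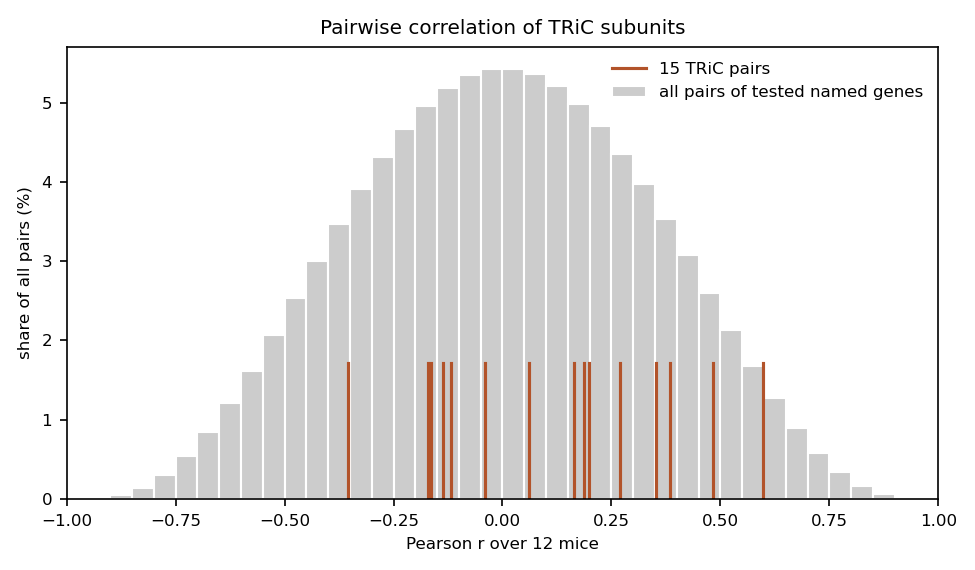
Pearson r over the 12 mice (x axis) for all pairs of tested named genes, as the share of pairs in bins of 0.05 (grey bars), and for the 15 pairs of TRiC genes (coloured lines, whose height has no meaning). The TRiC pairs run from -0.35 to 0.60 with a median of 0.16.

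Within the labels the median r of the 15 pairs was 0.53 in the 6 TOL mice and 0.020 in the 6 INT mice, against 0.0052 and 0.0042 over all pairs. In TOL mice r lay between -0.56 and 0.87 with 10 pairs above 0, and in INT mice between -0.48 and 0.70 with 8 pairs above 0. The dim Cct5, not above background in TOL mouse 7, had r in TOL mice of 0.82 with Cct3, 0.54 with Cct6a, 0.79 with Tcp1 and 0.87 with Cct8. Among the 10 pairs without Cct5, Tcp1 and Cct8 had 0.82 in TOL mice and -0.20 in INT mice. Cct8 had 0.56 with Cct3 and 0.53 with Cct6a in TOL mice, against -0.35 and -0.22 in INT mice. Cct3 and Cct6a had 0.57 in TOL mice and 0.17 in INT mice. Tcp1 had 0.40 with Cct3 and 0.11 with Cct6a in TOL mice, against higher values of 0.70 and 0.65 in INT mice. Every pair with Cct4 was below 0 in TOL mice. The TOL median of 0.53 thus rests in part on the dim Cct5. It was not computed without Cct5, or without TOL mouse 7 or 11. The difference between the labels was not tested.

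Probes of 1 transcript also followed each other only in part. Over the 12 mice r was 0.27 for the 2 tested Tcp1 probes (rho = 0.29, permutation p = 0.405 and 0.354), 0.36 for the Cct3 probes (rho = 0.18, permutation p = 0.244 and 0.574) and 0.55 for the Cct6a probes (rho = 0.34, permutation p = 0.0658 and 0.288). Without the 2 mice farthest from the median of the brighter probe, r was -0.051, -0.36 and 0.012. Within TOL and INT mice r was -0.15 and -0.076 for Tcp1, 0.30 and 0.63 for Cct3 and 0.58 and 0.52 for Cct6a. Each r thus depended on which mice were included. Over all 3083 genes with several tested probes, the median r between probes of 1 gene was 0.29, with quartiles of -0.014 and 0.57.

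The genes whose pattern over the 12 mice was most like that of the subunits were found by the mean Pearson r with the 6 TRiC genes, over 9028 other named genes. Tkfc was first at 0.47, followed by Pde6g, Sgta, Lgals9, Fbxo36, Zbtb7b, Med1, Parp12, Esd and Tmem229b, which lay between 0.41 and 0.39. Sgta encodes a co-chaperone that binds Hsp70 and Hsp90, and Tkfc encodes a kinase that acts on dihydroxyacetone. The lowest were Zfp275, Brd9, Cnot7, Klf16 and Pygo1, at -0.45 to -0.44, where the percentiles 1 and 99 of all genes were -0.34 and 0.33. These 15 genes were the extremes of all genes by construction, and none of them passed an adjusted p of 0.05 between TOL and INT (lowest adjusted p = 0.566, Tmem229b).

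The partners that bring clients to TRiC gave a similar picture, with 0 genes at an adjusted p under 0.05. Of the 6 prefoldin genes 5 were tested, and 1 was at an unadjusted p of 0.05 or less: Pfdn4, which averaged 8.49 ± 0.35 in TOL mice and 8.86 ± 0.17 in INT mice (log2 fold change -0.37, SE 0.14, unadjusted p = 0.018, adjusted p = 0.369). The next smallest p was that of Vbp1, the prefoldin subunit that binds the von Hippel-Lindau protein, at 0.13 (SE 0.097, adjusted p = 0.724). Among 5 cofactor genes, the phosducin-like proteins and Pdcd5, 3 were tested and 0 reached an unadjusted p of 0.05, with Pdcl3 at 0.085 (SE 0.072, adjusted p = 0.755) and Pdcd5 at -0.088 (SE 0.096, adjusted p = 0.820). Of the tubulin cofactors, which assemble the tubulin dimer after TRiC, 4 of 6 were tested and 0 reached it, with Tbca at -0.18 (SE 0.098, adjusted p = 0.597) and Arl2 at 0.094 (SE 0.14, adjusted p = 0.879). The relatives Mkks and Bbs10, chaperonin-like genes of the Bardet-Biedl syndrome group, were at -0.12 (SE 0.11) and -0.064 (SE 0.095), and the other 3 of 5 relatives were not tested.

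Among the clients, Actb, cytoplasmic beta-actin, had the smallest p of the client and partner genes. It averaged 11.9 ± 0.12 in TOL mice and 11.6 ± 0.090 in INT mice, with a log2 fold change of 0.26 (SE 0.074), an unadjusted p of 0.0024 and an adjusted p of 0.155. Acta1, the skeletal muscle actin that makes up the thin filament, was at -0.0024 (SE 0.056, adjusted p = 0.995), and its SD over the 12 mice was 0.063. Ckm, Pvalb and Mylpf, fibre markers of a similar level (13.7 to 13.9, Acta1 13.8), had SDs of 0.080, 0.091 and 0.077. A small SD was thus not particular to Acta1, and whether the upper end of the intensity scale limits these values was not tested. Acta2, the smooth muscle actin, was at -0.43 (SE 0.19, unadjusted p = 0.040, adjusted p = 0.481), and it is one of the 4 smooth muscle markers that were lower in TOL mice. Of 16 tubulin genes listed 10 were tested, and Tubb4a alone was at an unadjusted p of 0.05 or less (0.22, SE 0.074, adjusted p = 0.294), while Tubb4b was at -0.28 (SE 0.19, adjusted p = 0.698). Of 7 other clients 5 were tested and 0 reached it, with Gnb5, a G protein beta subunit, at 0.18 (SE 0.12, adjusted p = 0.663), and Fzr1, an activator of the anaphase-promoting complex, at 0.065 (SE 0.087, adjusted p = 0.862).

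Other chaperone and degradation genes were also without a call after adjustment. The 8 tested of 10 chaperone genes known as targets of heat shock factor 1, or the factor itself, had a median log2 fold change of 0.62 with 7 higher in TOL mice, and Hspa1a alone was at an unadjusted p of 0.05 or less (2.35, SE 1.01, adjusted p = 0.457). Hspa1b, its near-identical copy, was at 0.87 (SE 0.42, adjusted p = 0.528), and each of the 2 probes may also bind the other transcript. Hspd1 and Hspe1, the mitochondrial chaperonin and its lid, were at 0.18 (SE 0.21) and -0.20 (SE 0.39). Of the Hsp90 partners 8 of 10 were tested, and Ahsa1, which stimulates the ATPase of Hsp90, was at 0.30 (SE 0.13, unadjusted p = 0.037, adjusted p = 0.470), and Ptges3, the p23 co-chaperone, at 0.18 (SE 0.12, adjusted p = 0.687). Of 31 proteasome genes 27 were tested with a median of 0.028, and Psmc1, an ATPase subunit, was the 1 gene at an unadjusted p of 0.05 or less (0.19, SE 0.088, adjusted p = 0.488), followed by Psmd6 (0.19, SE 0.10, adjusted p = 0.588).

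The promoter windows of most TRiC genes overlapped that of a gene that runs the other way. For 6 of the 7 genes with a window, this was so, which held for 11.9% of all 27025 genes in the table. The partners were Mrpl18 at Tcp1, Tsacc at Cct3, Atpsckmt at Cct5, Psph at Cct6a, Pradc1 at Cct7 and B130034C11Rik at Cct8, and this set was looked up after the subunit values were known. Mrpl18, a mitochondrial ribosomal protein gene, averaged 7.87 ± 0.20 in TOL mice and 7.73 ± 0.22 in INT mice (log2 fold change 0.14, SE 0.12, adjusted p = 0.757). Atpsckmt, a lysine methyltransferase gene, was at 0.31 (SE 0.11, unadjusted p = 0.0085, adjusted p = 0.292), Pradc1 at 0.18 (SE 0.097, adjusted p = 0.575) and Tsacc at 0.077 (SE 0.092, adjusted p = 0.839). Psph and B130034C11Rik were not tested. None of the 4 tested partners passed the adjusted threshold, as none of the subunits did.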

How the data were processed

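The authors hybridised labelled RNA of each muscle to 1 Illumina MouseWG-6 v2 array and used GenomeStudio for the images (no version is given in the labels or methods). Their deposited signal table gives each probe's average intensity per array, neither background corrected nor normalized, and a detection p-value. The authors' deposited value table gives intensity on a linear scale, background subtracted and quantile normalized by an unnamed program, and served as an alternative. The methods' miRNA and protein measurements were not analysed here.

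With limma 3.58.1 in R 4.3.3, neqc estimated the background through the detection p-values, and signals were raised by an offset of 16, quantile normalized and put on the log2 scale. Probes detected at p under 0.05 on at least 6 of 12 arrays were tested, TOL minus INT, by lmFit and eBayes (trend on intensity), with Benjamini-Hochberg adjustment over all tested probes. No batch is given in the labels. The highest mean log2 probe gave a gene's value among 34885 probes with 1 symbol, while 18 probes had several and 10378 none. Levels of different probes were not compared. Correlations used Python 3.11.15 and 100000 permutations. The fit was tested on simulated data.

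Named were all TRiC probes, 2 to 4 members of each list with the smallest p, the 10 highest and 5 lowest genes by mean r with the subunits, and Hspa1a and Dnajb1 in every mouse. Acta1 and the opposite-strand genes were added after their values were seen. The members, lists and tests were chosen with earlier results of these data known. The design foresaw 28 pairs, of which 15 could be made with 6 tested genes, and a comparison of the proteins, which was not made. Mouse numbers occur in both labels and were not taken to pair the mice. Alternatives covered background, offset, scaling, filter, probe choice, array weights, variance model, the methods' t-test, a block on mouse number and each mouse left out.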

Additional observations from a re-analysis of the deposited data

Results flagged for a closer look

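In 18 sets of 6 mice, the 9 tested probes in each label, 0 held a mouse whose gap to its neighbour was above Dixon's 95% critical value.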

How the results depend on the processing

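No TRiC gene passed the adjusted threshold under any alternative. The count of genes at an unadjusted p of 0.05 or less, which was 1 (Tcp1), was 0 with median scaling, without a filter, with array weights and with a replicate block on mouse number, and between 0 and 1 when a mouse was left out; under median scaling the median log2 fold change of all genes was 0.012. The log2 fold change of Tcp1 kept its sign in all 24 alternatives, between 0.15 and 0.25, with p between 0.0198 and 0.111 and at 0.05 or less in 12 of them. That of Cct8 kept its sign too, between 0.015 and 0.17. Near 0, signs turned: Cct5 was -0.011 with the RMA-type background, Cct3 was 0.11 with the mean over probes, and leaving out 1 mouse gave -0.052 to 0.034 for Cct3, -0.097 to 0.0034 for Cct4, -0.030 to 0.12 for Cct5 and -0.018 to 0.11 for Cct6a. The causes were not tested.

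The deviations of same-numbered mice from their label means had r between -0.0072 and 0.15, and the numbers were not taken to pair the mice. Mice of different numbers were not compared in this way, so these r cannot decide whether same-numbered mice shared anything. The block changed no adjusted call. Values of the deposited table below 16 were set to 16 before log2, which left Cct5 at 16 on all arrays there, and Cct5 was not detected on all 12 arrays, so neither alternative gave it a value, and its level of 4.21 to 4.97 lies near background. The median r of the 15 pairs was 0.26 with median scaling. With the value table it was 0.0067 over the 10 pairs without Cct5, where the same 10 pairs gave 0.011 in the signal table. The number of arrays limits the precision.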
